A study of Mus musculus with 6 samples.

Results

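The genes described here are 9 members of the fibroblast growth factor (FGF) system: the receptor genes Fgfr1, Fgfr2, Fgfr3 and Fgfr4, the kinase-less receptor Fgfrl1, the co-receptor Klb, and the ligand genes Fgf1, Fgf2 and Fgf13. They were chosen by gene symbol and all 9 were found among the 25302 rows of the table. The RNA came from biliary epithelial cells, the lining of the bile ducts, of mouse liver, in 3 Control samples of genotype Sox9fl/fl and in 3 Sox9cKO samples of genotype Sox9fl/fl:AlbCre+/-. All 6 samples carried floxed Sox9 alleles, and only the Sox9cKO samples carried Cre, which in this transgene is driven by the albumin promoter. The Control genotype has no Cre, so loss of Sox9 and presence of Cre cannot be told apart. The labels give neither age nor sex, and they do not say that the samples came from separate mice, so p-values measure the spread between these samples, which may be technical.

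FGF receptors are receptor tyrosine kinases that bind an FGF ligand together with heparan sulfate on the cell surface. They signal through the adaptor FRS2 to the RAS-MAPK cascade, which switches on the transcription factors ETV4 and ETV5 and the feedback inhibitors of the Sprouty and DUSP families. In liver, FGFR4 with the co-receptor beta-klotho (Klb) is best known as the hepatocyte receptor for the gut hormone FGF15, which represses bile acid synthesis. FGF1 and FGF2 are local ligands without a classical secretion signal, and FGF13 is an FGF homologous factor that stays in the cell and binds voltage-gated sodium channels and microtubules.

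The samples held from 11883496 to 16191990 reads assigned to genes. Values below are normalized reads (reads over the sample's size factor), which do not correct for gene length unless given per kb. Lists of values per sample follow the order of replicates 1, 2 and 3. Sox9, the targeted gene, had 6182 ± 127 normalized reads in Control and 3289 ± 108 in Sox9cKO (SD, n = 3), with no overlap. All 12 listed biliary markers, among them Krt7, Krt19 and Epcam, had reads in every sample, and 1 of the 12, Krt7, was called higher in Sox9cKO. Markers of other liver cells were present too. The summed level of the 10 endothelial markers, all of them detected in every sample, ran from 1754 to 39995 normalized reads in Control and from 6305 to 40028 in Sox9cKO, with the highest value in replicate 2 of each group. The summed level of the 13 hepatocyte markers, likewise all detected, was 28906 to 42392 in Control and 50163 to 81435 in Sox9cKO. In such bulk samples, fewer cells of a type and less RNA per cell cannot be told apart.

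Of the FGF receptor genes, Fgfr4 was much lower in Sox9cKO than in Control, while Fgfr1, Fgfr2 and Fgfr3 were not called different. Of the ligand genes, Fgf1 was higher in each Sox9cKO sample than in any Control sample, but it missed the threshold of the main test and passed it in 3 of 18 alternatives. Differences were tested with limma on log2(value + 1) over the 17153 genes averaging 10 or more normalized reads, and a gene is called when its Benjamini-Hochberg adjusted p is under 0.05. Of the 9 genes, 7 passed this filter and 2, Fgf2 and Fgf13, did not. Fgfr4 was the only 1 of the 7 that was called, against a background of 2.97% of all genes tested. For 5 of the 7, the groups did not overlap (background 24.2%), which is a description, since Klb passed the filter only through its Control samples. The Sox9cKO samples all lay below the Control samples for 4 of the 7 (Fgfr1, Fgfr4, Fgfrl1 and Klb; background 10.8%) and all above them for Fgf1 (background 13.4%).

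**Figure D1:**
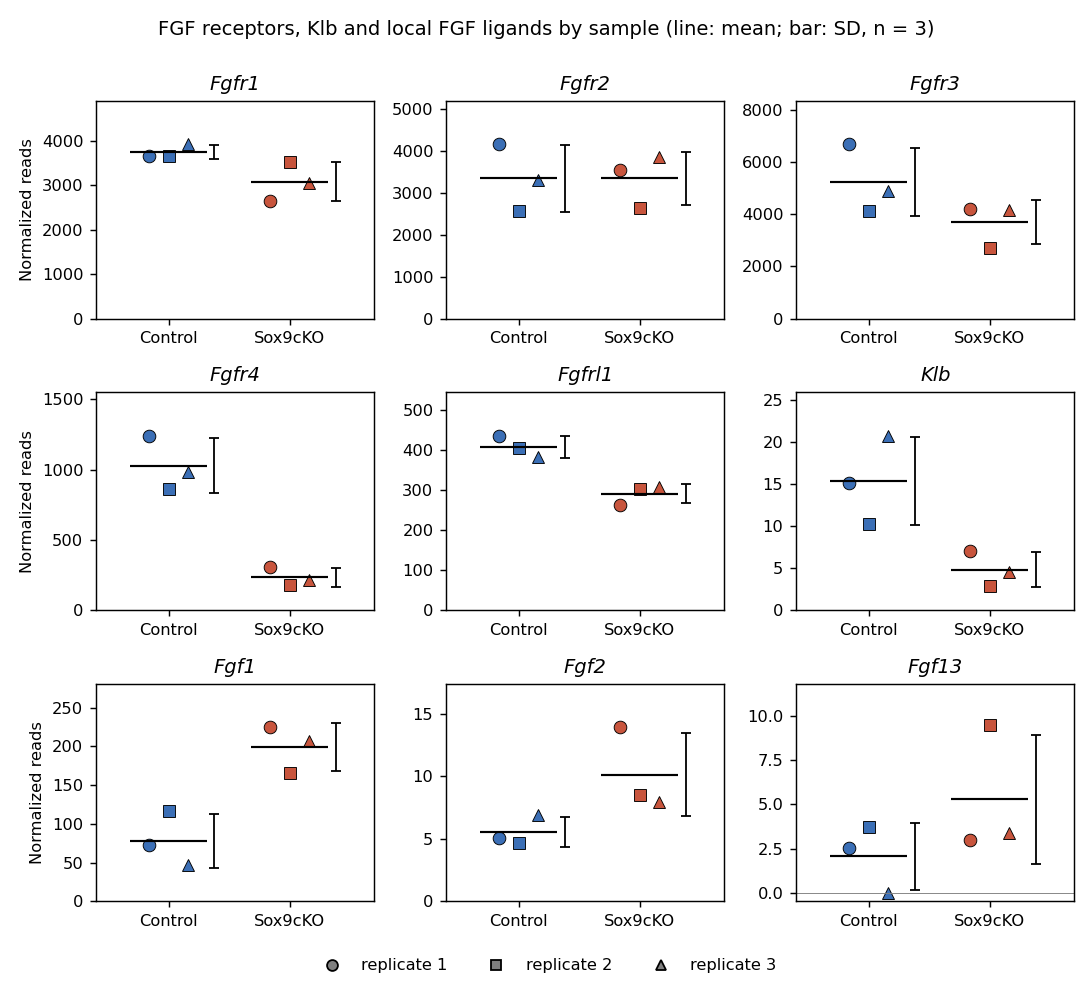
Normalized reads (vertical axes, each on its own linear scale) of the 9 genes in 3 Control and 3 Sox9cKO samples. Symbols mark the replicate number, horizontal lines the group means and bars the SD; Fgfr4 lies between 865 and 1241 in Control and between 177 and 309 in Sox9cKO, whereas the groups overlap for Fgfr2, Fgfr3 and Fgf13.

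Fgfr4 (ENSMUSG00000005320) encodes the FGF receptor that pairs with beta-klotho in hepatocytes. It had 1241, 865 and 980 normalized reads in Control and 309, 177 and 211 in Sox9cKO. Every Sox9cKO sample was below every Control sample, and the lowest Control sample was still far above the highest Sox9cKO sample. The mean fell from 1029 ± 192 to 232 ± 68.9 (SD, n = 3), which is 22.6% of the Control mean or a 4.43-fold lower level. limma gave a log2 fold change of -2.17, a standard error of 0.24 and a 95% confidence interval of -2.72 to -1.61 (adjusted p = 0.00553). The call held in all 18 alternative fits, with log2 fold changes between -2.39 and -1.99 and adjusted p-values of at most 0.0331, reached without Control replicate 1, where 1.17% of all genes were called. Of the 13 hepatocyte markers, 2 were called higher in Sox9cKO and none lower. Apob carried most of the difference between their sums, given above (means of 2712 and 22111 normalized reads). Without Apob the sums overlapped, at 26665 to 39080 in Control and 32980 to 48891 in Sox9cKO. Of the 12 markers left, 10 had a higher mean in Sox9cKO, among them Tat, the other called marker, and 2 had a lower one. The part of these markers in the Fgfr4 result was not tested.

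The sequence in front of Fgfr4 is shown because this is the receptor gene whose level changed and Sox9 is a DNA-binding protein. The 250 bases before the RefSeq transcription start lie at chr13:55152568-55152817 on the + strand of GRCm38.p6, and 64.0% of them are G or C, against a median of 52.4% over all such windows.
Fgfr4 upstream: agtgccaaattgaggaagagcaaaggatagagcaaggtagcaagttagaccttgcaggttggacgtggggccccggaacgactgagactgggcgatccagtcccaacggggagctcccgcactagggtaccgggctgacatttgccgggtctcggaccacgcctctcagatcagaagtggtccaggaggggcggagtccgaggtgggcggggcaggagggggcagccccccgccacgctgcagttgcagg
The letters ACAAAG and ACAATG, core words of the motif that SOX proteins bind, were searched on both strands, and neither is in this window, so nothing is in capitals. At least 1 of these words is in 25.2% of the 32851 windows of the same length in the RefSeq table. No match says only that these letters are not in this window.

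Fgfr3 (ENSMUSG00000054252), a receptor best known for restraining bone growth, was the most abundant of the 9 genes. Its normalized reads were 6681, 4128 and 4911 in Control and 4191, 2718 and 4181 in Sox9cKO. The groups overlapped, and replicate 2 was the lowest sample of each. The means were 5240 ± 1308 and 3696 ± 847 (SD, n = 3), with a log2 fold change of -0.50 and a 95% interval of -1.05 to 0.048 (limma, adjusted p = 0.323). Each Sox9cKO sample was below the Control sample of the same number. When replicate numbers were entered as a block, the standard error was 0.12 instead of 0.23 and limma's adjusted p was 0.04998, just under the threshold, in a fit that called 8.05% of all genes. edgeR with that block gave 0.0499 and called 6.76% of all genes. Replicate 2 also had the highest endothelial marker sum of each group, and with an endothelial score as a covariate the log2 fold change was -0.44 (limma, adjusted p = 0.362).

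Fgfr2 (ENSMUSG00000030849), whose IIIb splice form is the usual epithelial receptor for FGF7 and FGF10, did not differ beyond the spread. It had 4155, 2567 and 3313 normalized reads in Control and 3539, 2627 and 3860 in Sox9cKO. The groups overlapped almost fully, and replicate 2 was again the lowest of each. The means were 3345 ± 794 and 3342 ± 640 (SD, n = 3). The log2 fold change was 0.0074, with a 95% interval of -0.50 to 0.51 (limma, adjusted p = 0.992), so a change of up to about 0.5 on the log2 scale in either direction is within the interval. Its sign turned in 7 of 18 alternatives. Gene-level values do not separate the splice forms of Fgfr1, Fgfr2 or Fgfr3.

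Fgfr1 (ENSMUSG00000031565), which is widely expressed in mesenchymal and epithelial cells, showed little spread in Control. Its normalized reads were 3661, 3647 and 3915 in Control and 2643, 3518 and 3057 in Sox9cKO. The Sox9cKO samples all lay below the Control samples, by a narrow margin in replicate 2. The means were 3741 ± 151 and 3073 ± 438 (SD, n = 3), with a log2 fold change of -0.29 and a 95% interval of -0.60 to 0.012 (limma, adjusted p = 0.302). Fgfr1 was not called in any of 18 alternatives.

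Fgfrl1 (ENSMUSG00000008090) encodes a receptor that binds FGFs but lacks the kinase domain. It had 435, 404 and 381 normalized reads in Control and 263, 301 and 307 in Sox9cKO. The groups did not overlap, and the means were 407 ± 27.2 and 290 ± 24.1 (SD, n = 3). The log2 fold change was -0.49 with a 95% interval of -0.80 to -0.17 (limma, adjusted p = 0.118). Only DESeq2 called it (adjusted p = 0.0395), a tool that called 7.08% of all genes.

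Klb (ENSMUSG00000029195), the co-receptor that lets FGFR4 and FGFR1 bind endocrine FGFs, was near the lower limit of detection. Its normalized reads were 15.1, 10.2 and 20.7 in Control and 6.96, 2.84 and 4.53 in Sox9cKO, which correspond to 18, 11 and 18 reads against 7, 3 and 4 reads. The groups did not overlap, and the Control mean was 3.22-fold the Sox9cKO mean. limma estimated a log2 fold change of -1.51 with a standard error of 0.47 (adjusted p = 0.157). Klb was not called in any of the 15 alternatives in which it could be fitted.

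Per kb of exon, Fgfr4 had the lowest mean of the 4 kinase receptors in both groups, but it lay above the kinase-less Fgfrl1 in Control and below it in Sox9cKO. In Control the order was Fgfr3 (732 ± 183 normalized reads per kb), Fgfr1 (379 ± 15.3), Fgfr2 (324 ± 76.9) and Fgfr4 (290 ± 54.3; SD, n = 3), where the ranges of Fgfr1 and Fgfr2 overlapped, as did those of Fgfr2 and Fgfr4 (249 to 402 and 244 to 350). Fgfr3 lay above the other receptors without overlap. Fgfrl1 followed with 146 ± 9.77 per kb, below Fgfr4 in every Control sample. In Sox9cKO, Fgfr3 (516 ± 118), Fgfr2 (324 ± 61.9) and Fgfr1 (311 ± 44.3) led, with overlapping ranges of Fgfr2 and Fgfr1, and Fgfr4 (65.6 ± 19.5) was below Fgfrl1 (104 ± 8.66; SD, n = 3), with no overlap. Fgf1 (14.4 ± 6.37 in Control and 36.5 ± 5.59 in Sox9cKO) lay well under the receptors, and Klb, Fgf2 and Fgf13 had group means of 0.517 to 3.38 per kb. Exon lengths are unions over all annotated transcripts, so levels between genes are approximate.

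As a share of the summed Fgfr1 to Fgfr4 reads per kb, Fgfr4 was nearly constant in Control, at 17.0%, 17.0% and 16.5% in replicates 1 to 3, while its normalized reads varied more. In Sox9cKO it took 6.81%, 4.80% and 4.48%. The mean share was 16.8% ± 0.306 against 5.36% ± 1.26 (SD, n = 3), with no overlap, a difference of -11.5 percentage points. Fgfr2 took 19.6%, 17.3% and 19.1% in Control and 26.7%, 24.5% and 28.2% in Sox9cKO, again with no overlap. For both, the exact two-sided permutation test over samples gave p = 0.1 (adjusted over the 4 receptors, 0.2), the smallest p that 3 against 3 samples allow. The shares of Fgfr1 (22.4% ± 3.95 against 26.1% ± 7.12) and Fgfr3 (42.1% ± 2.87 against 42.0% ± 4.87) overlapped between groups (exact permutation p = 0.6 and 1). Shares sum to 100%, so a lower share of Fgfr4 raises the sum of the other shares, though not each of them. The summed level itself was 1725 ± 311 normalized reads per kb in Control and 1217 ± 154 in Sox9cKO (SD, n = 3; exact permutation p = 0.1). Not divided by length, this sum was 13355 ± 2274 normalized reads in Control and 10344 ± 1171 in Sox9cKO (SD, n = 3). On that scale the groups overlapped (exact permutation p = 0.2). Without division by length the Fgfr4 difference was -5.45 percentage points, since Fgfr4 has the shortest exon length of the 4, at 3.54 kb.

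**Figure D2:**
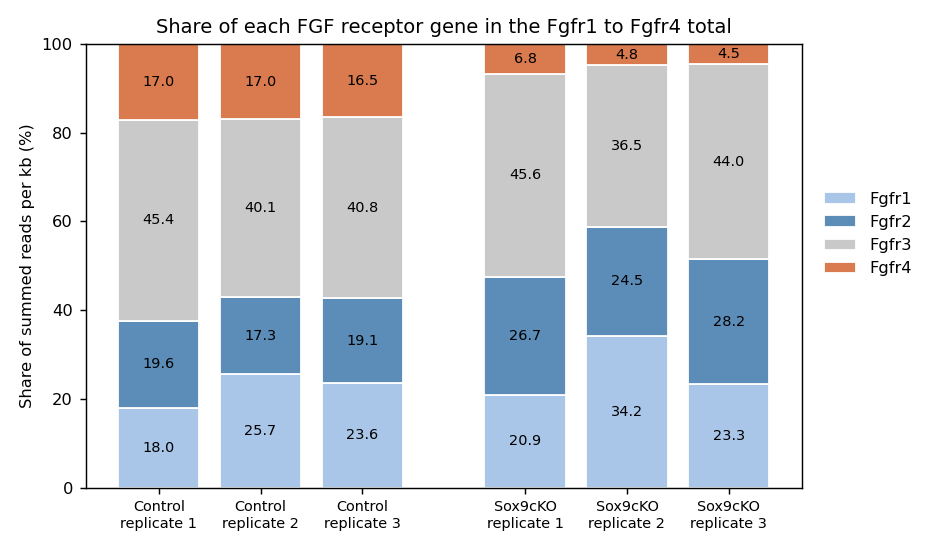
Share (%) of each receptor gene in the summed Fgfr1 to Fgfr4 normalized reads per kb, 1 stacked bar per sample. The Fgfr4 part is 16.5% to 17.0% in the Control bars and 4.48% to 6.81% in the Sox9cKO bars.

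Fgf1 (ENSMUSG00000036585), a ligand that can bind all 4 FGF receptors, was the only ligand of the 3 above the filter. It had 72.3, 116 and 47.2 normalized reads in Control and 225, 165 and 207 in Sox9cKO. The lowest Sox9cKO sample was above the highest Control sample. The means were 78.5 ± 34.8 and 199 ± 30.5 (SD, n = 3), a 2.54-fold higher level in Sox9cKO. The log2 fold change was 1.41 with a 95% interval of 0.64 to 2.19 (limma, adjusted p = 0.0766), which missed the threshold. The replicate block brought it under the threshold (limma, adjusted p = 0.0407). It was also called by DESeq2 (adjusted p = 0.00576) and by limma without Control replicate 2 (log2 fold change 1.74, adjusted p = 0.0283), where 2.29% of all genes were called.

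Control replicate 2, the highest Control sample for Fgf1, also had the highest endothelial marker sum of the Control samples, and Control replicate 3 was the lowest for both. In Sox9cKO the order was not the same, since replicate 2 had the highest endothelial sum and the lowest Fgf1 value. With an endothelial score as a covariate, an alternative added after the data were seen, the log2 fold change of Fgf1 was 1.23 (limma, adjusted p = 0.0558). The summed level of 12 fibroblast and stellate markers was 2267 to 3012 in Control and 2473 to 5342 in Sox9cKO, and its part in the Fgf1 values was not tested. Reln was the largest part of this sum in every sample, at 1653 to 1797 in Control and 1579 to 2799 in Sox9cKO. The 11 markers tested were split, with 6 log2 fold changes above 0 and 5 below (median 0.051). Of these 12 markers, Thy1 had no reads in Control replicate 3.

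Fgf2 (ENSMUSG00000037225), the other local ligand, had few reads. It had 6, 5 and 6 reads in Control and 14, 9 and 7 in Sox9cKO, or 5.53 ± 1.21 against 10.1 ± 3.31 normalized reads (SD, n = 3). The groups did not overlap, though only 1 read separated the nearest samples. Fitted without a filter on low values, its log2 fold change was 0.74 (limma, adjusted p = 0.413), so no difference was detectable at this depth. Fgf13 (ENSMUSG00000031137) had 3, 4 and 0 reads in Control and 3, 10 and 3 in Sox9cKO, and the groups overlapped. The 0 reads in Control replicate 3 allow a level of up to 3.46 normalized reads (3 reads, counting error only). The values of Fgf13 were at or near that floor in all samples but Sox9cKO replicate 2, so no fold change is given (limma without a filter, adjusted p = 0.453).

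**Figure D3:**
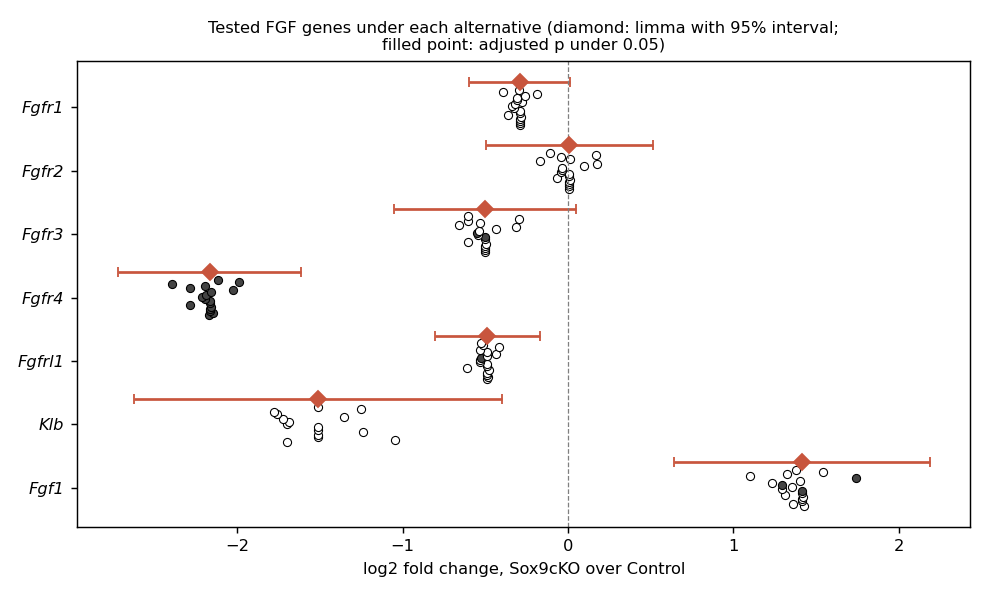
Log2 fold changes (Sox9cKO over Control, horizontal axis) of the 7 tested genes, as the limma estimate and its 95% interval (diamond) and under each alternative fit (points, filled where the adjusted p is under 0.05). All 18 points of Fgfr4 are filled and lie between -2.39 and -1.99, while only some of those of Fgf1, Fgfr3 and Fgfrl1 are.

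Among genes averaging 50 or more normalized reads, the 3 whose pattern over the 6 samples was most like that of Fgfr4 were Fam234b (Pearson r = 0.998 of the log2 values), Dcx (0.998) and Ces1d (0.995), out of 11047 genes compared. Fam234b had 551 to 865 normalized reads in Control and 136 to 214 in Sox9cKO. Dcx, which encodes the microtubule-binding protein doublecortin, had 336 to 588 and 1.89 to 13.9, and Ces1d, a carboxylesterase, had 1629 to 2117 and 501 to 823. In all 3, as in Fgfr4, replicate 1 was the highest sample of each group. These points share the libraries and the group difference.

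Other genes of the pathway were taken from 7 lists, of which 108 of 115 genes were in the table and 91 were tested. Of these 91, 6 were called higher and 2 lower in Sox9cKO (background 2.03% and 0.939%). With the replicate block, 14 were called higher and 6 lower (limma), where 5.06% and 2.99% of all genes were called. The median log2 fold change of all genes tested was 0.036.

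Among the response genes, the ETS-family transcription factors Etv4 and Etv5, which FGF signalling induces in many tissues, were both lower in Sox9cKO. Whether FGF signalling differed between the groups was not tested. Etv5 had 554, 492 and 578 normalized reads in Control and 238, 187 and 245 in Sox9cKO, which limma put at -1.28 on the log2 scale (adjusted p = 0.00761). Etv4 had 43.7, 69.6 and 39.2 in Control and 4.97, 6.62 and 10.2 in Sox9cKO, or -2.65 on the log2 scale (limma, adjusted p = 0.0151). Neither gene overlapped between groups. Etv4 passed the filter only through its Control samples, so its call and its lack of overlap are a description. Etv5 missed the threshold without Control replicate 1 (limma, adjusted p = 0.0506), and Etv4 missed it when any of the Control replicates was left out (limma, adjusted p = 0.0516 to 0.0783). Of the 13 response genes tested, these 2 were called lower and none higher, with a median log2 fold change of -0.42. With the replicate block 4 were called lower by limma, since Egr1 and Egr2, early response genes, were added (adjusted p = 0.0312 and 0.00469), and 4 were called by edgeR. DESeq2 called 5.

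Of 13 feedback inhibitors tested, only Dusp4, a nuclear MAPK phosphatase, was called, and it rose from 943, 1081 and 974 normalized reads in Control to 3031, 2073 and 2453 in Sox9cKO (log2 fold change 1.32; limma, adjusted p = 0.00715). Its groups did not overlap, and the median of the list was 0.21. With the replicate block Spry4, a Sprouty inhibitor, was also called higher (log2 fold change 0.63; limma, adjusted p = 0.0471, against 0.224 without the block). Among the 25 adaptors and members of the RAS-MAPK cascade, none was called by the main limma fit or by edgeR without the replicate block. In the main fit 2 had an unadjusted p under 0.05. DESeq2, and limma and edgeR with the block, each called 1. The smallest p belonged to Rps6ka1, a kinase downstream of ERK, with limma's adjusted p at 0.0579 and a log2 fold change of 0.74. It was called when blocked by replicate (adjusted p = 0.0269 with limma and 0.0412 with edgeR), by DESeq2 (0.00323) and by limma with the endothelial covariate (0.0451). Next was Gab1, a docking adaptor, at -0.33 (limma, adjusted p = 0.168). The median of this list was -0.032, close to that of all genes.

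At the cell surface, 2 of 21 tested co-receptors and heparan sulfate genes were called, both higher. Ncam1, an adhesion molecule that can bind FGF receptors, rose from 133, 147 and 158 normalized reads in Control to 1478, 2898 and 2924 in Sox9cKO (log2 fold change 3.99; limma, adjusted p = 0.00134). Sulf2, an enzyme that removes sulfate groups from heparan sulfate, had 30.3, 83.5 and 25.3 in Control and 234, 166 and 290 in Sox9cKO (log2 fold change 2.45; limma, adjusted p = 0.0378). Neither overlapped between groups, but Sulf2 lost its call in 7 of 18 alternatives, among them the fits without Control replicate 1 or 3 or without any of the Sox9cKO replicates (limma, adjusted p of 0.0674 to 0.155). In this list 19 of 21 genes had a log2 fold change above 0, and the median was 0.61. All 10 endothelial markers also had a log2 fold change above 0 (median 1.04), though none was called. With an endothelial score as a covariate, Ncam1 and Sulf2 had log2 fold changes of 4.06 and 2.27 (limma, adjusted p = 0.00102 and 0.0325). The part of the endothelial markers in the values of this list was not otherwise tested. With the replicate block 7 of the 21 co-receptor and heparan sulfate genes were called, all higher (limma).

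None of the other FGF ligands and homologous factors was called by limma or edgeR without the replicate block (6 of 19 tested, 3 with an unadjusted p under 0.05), while DESeq2, and limma and edgeR with the block, each called 1. The smallest p belonged to Fgf12, an intracellular homologous factor like FGF13. It had 197, 186 and 162 normalized reads in Control and 94.5, 52.9 and 106 in Sox9cKO, with no overlap (log2 fold change -1.15; limma, adjusted p = 0.0878). It was called when blocked by replicate (adjusted p = 0.0409 with limma and 0.0480 with edgeR) and by DESeq2 (0.00532). Next was Fgf17, whose log2 fold change of -0.99 had an adjusted p of 0.187 (limma). The median of the 6 was -0.84.

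Voltage-gated sodium channel subunits, the partners of the FGF homologous factors, included 3 called genes of 8 tested, all higher in Sox9cKO (background 2.03%). Of the 8, 5 had a log2 fold change above 0 and 3 below. Scn7a, whose product is a sodium-sensing channel, had 16.8, 14.8 and 5.76 normalized reads in Control and 199, 594 and 473 in Sox9cKO (log2 fold change 4.95; limma, adjusted p = 0.00501). Scn3a had a log2 fold change of 1.98 and Scn9a one of 2.38 (limma, adjusted p = 0.0323 and 0.0375). In none of the 3 did the groups overlap (background 13.4% with all Sox9cKO samples above all Control samples). Scn3a and Scn9a each lost the call in 5 of 17 alternatives, all of them fits that left out 1 sample, with adjusted p-values (limma) up to 0.128 and 0.152. The median of the 8 was 0.94. With the replicate block, Scn8a was also called higher and Scn11a was called lower, at log2 fold changes of 1.27 and -2.38 (limma, adjusted p = 0.00578 and 0.0306, against 0.0540 and 0.214 without the block). The Control levels of the 3 called genes were low, at group means of 7.43 to 13.1 normalized reads. Of 6 neural and Schwann cell markers, 3 were in the table, and their sum was 41.2 to 55.7 in Control and 24.6 to 37.8 in Sox9cKO, opposite in direction to Ncam1 and the called channels. The sum of 4 mesothelial markers was 381 to 488 in Control and 911 to 1859 in Sox9cKO, and 1 of the 4, Msln, was called higher. Without Msln the sums of the other 3 overlapped, at 108 to 120 and 84.1 to 119. The sum of 7 leukocyte markers was 1038 to 1120 and 1519 to 1825, with Csf1r called higher, but the other 6 all had lower means in Sox9cKO, and their sums were 241 to 340 in Control and 187 to 254 in Sox9cKO. The part of both lists in these results was not tested.

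Of 7 listed genes of bile acid synthesis, sensing and transport, 5 could be tested. None of them was called by limma or edgeR (1 had an unadjusted p under 0.05). Nr0b2, a nuclear receptor that represses bile acid synthesis, had 95.8, 46.4 and 36.9 normalized reads in Control and 5.97, 15.1 and 15.8 in Sox9cKO. There was no overlap (log2 fold change -2.17; limma, adjusted p = 0.0747), and of the alternatives only DESeq2 called it (adjusted p = 0.00179). Cyp27a1, a bile acid synthesis enzyme, overlapped between groups (log2 fold change 0.43 with limma, adjusted p = 0.613). Cyp8b1 was under the filter in the table, and Cyp7a1 was not analysed here.

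**Figure D4:**
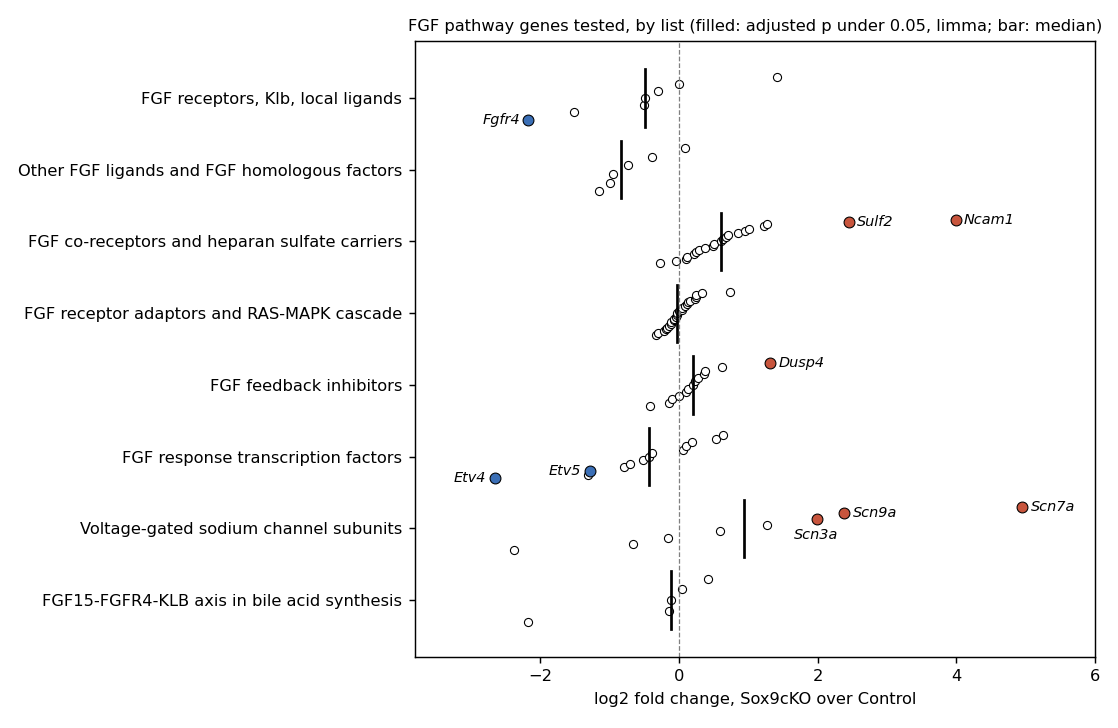
Log2 fold changes (Sox9cKO over Control, horizontal axis) of the tested genes by list, with called genes filled and named and list medians as vertical bars. Fgfr4, Etv4 and Etv5 are the called genes on the lower side, while Ncam1, Sulf2, Dusp4 and 3 sodium channel genes are on the higher side.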

How the data were processed

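Stranded total RNA libraries were made after ribosomal RNA depletion, with unique molecular identifiers, per the labels. The table the authors deposited holds a signal, that is, gene read counts scaled by 1 factor per sample. The submitters' processing notes name DESeq2 1.36.0 and build GRCm39. The aligner, the counter, the use of the molecular identifiers and of strand are not given in the sources used here. Every deposited value was a whole multiple of 1 read of its sample (100% of values, tolerance 0.001 reads), so whole reads were recovered. The factors equalled median-of-ratios factors. The lowest row total was 10 reads. Columns were matched to samples by the numbers in the titles.

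Values were tested as log2(value + 1) with limma 3.58.1 in R 4.3.3 (eBayes with trend), all 6 samples, genes with a mean of at least 10, two-sided, Benjamini-Hochberg adjustment and a threshold of 0.05. The pseudocount understates changes of low genes. Exact permutation tests over samples were used for receptor shares. Samples with the same replicate number in the labels deviated together (correlations 0.207, 0.472 and 0.542 across genes), so a fit blocked by replicate is given where it changes a call. edgeR 4.0.16 and DESeq2 1.42.0 on recovered reads, other pseudocounts, filters and scalings, a fit without trend, an endothelial covariate and leaving out each sample were alternatives. The scripts were tested on simulated data. Exon lengths came from GENCODE release M21 (GRCm38), and the upstream sequence from RefSeq's GRCm38.p6 table, in which 7 of the 9 genes were matched. Files and sequences use different builds, so no coordinate of the table is given.

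The 9 genes and all lists were chosen with earlier results of these data known. The text names the 9 genes, Sox9, at most 3 called genes per pathway list by p (where none was called, the 2 with the smallest p), and the 3 genes most like the called member. The marker genes, the untested genes and the genes named because the replicate block added their calls (Spry4, Egr1, Egr2, Scn8a, Scn11a) fall outside this rule and were chosen after their values were seen. A result of the sodium channel list is not reported here, and the counts leave it out.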

Additional observations from a re-analysis of the deposited data

How the results depend on the processing

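Fgfr4 was called lower in all 18 alternatives. The replicate block with limma raised the numbers of called genes in the whole table, among the 9 genes and in the pathway lists from 510, 1 and 8 to 1381, 3 and 20, edgeR with the replicate block to 1160, 2 and 18, and DESeq2 without a block to 1214, 3 and 21, and the cause was not tested. The block added Fgf1 and Fgfr3 with limma and Fgfr3 alone with edgeR, and DESeq2 added Fgf1 and Fgfrl1. Apart from the calls given beside the results, the block changed no call of a named gene. Leaving out 1 sample at a time gave 200 to 389 called genes in the table, 1 to 2 among the 9 and 3 to 8 in the pathway lists, with the fewest in the table and the lists without Control replicate 1. The log2 fold change of Fgfr2 turned negative with quantile normalization (-0.069), edgeR (-0.043), edgeR with the replicate block (-0.037) and DESeq2 (-0.038), and ranged from -0.17 to 0.18 when 1 sample was left out. The difference in share ranged from -0.333 to 6.36 percentage points for Fgfr1 and from -1.84 to 2.72 for Fgfr3 when 1 sample was left out, so neither has a stable direction. Depth limits Fgf2, Fgf13 and Klb, with at most 18 reads in any sample. At a minimum mean of 50, 5 pathway genes were called, since Etv4, Scn3a and Scn9a were then not tested. Klb could not be fitted at a minimum mean of 50 or without Control replicate 1 or 3, where it was under the filter.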
